A study of Mus musculus with 8 samples.

Results

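Gsn, Stom, Dab2ip and Ttll11 are near neighbours on mouse chromosome 2, and the 4 genes are described here out of 47937 gene IDs in the count tables. They were selected on their own values, the exonic and intronic reads of cells treated with dTAG-13 against cells treated with DMSO, and by their closeness on the chromosome. Their changes between these groups are therefore given as a description with standard errors and no test. Total RNA came from pro-B cells transformed with A-MuLV, the Abelson murine leukaemia virus, a line that models an early stage of B-lymphocyte development. All cells, controls included, had the genotype EBF1-dTAG_N, in which an introduced, tagged form of the transcription factor EBF1 replaces the endogenous one. The tag lets the small molecule dTAG-13 direct the protein to degradation. Cells received 0.5 µM dTAG-13 for 6 h (4 libraries) or the solvent DMSO for 6 h (4 libraries, which the titles call 0 h), and with no cells that lack the tag, effects of the compound and of losing EBF1 cannot be told apart. The labels call the libraries biological replicates without saying whether they came from separate cultures, so p-values measure the spread between these libraries.

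The 4 genes belong to separate families. Gsn encodes gelsolin, a calcium-activated protein that severs actin filaments and caps their growing ends, and alternative starts of the gene give a cytoplasmic and a secreted form. Stom encodes stomatin, a membrane protein with an SPFH domain that sits in cholesterol-rich membrane patches, forms oligomers and is best known from the red cell membrane. Dab2ip encodes a GTPase-activating protein that switches Ras off and also acts as a scaffold in signalling from the TNF receptor. Ttll11 encodes a tubulin tyrosine ligase-like enzyme that lengthens glutamate side chains on tubulin. EBF1 is required for commitment to the B lineage and binds DNA as a dimer at a palindrome written TCCCNNGGGA.

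In the GENCODE vM21 annotation of GRCm38 the 4 genes lie within 724 kb, from 35256380 to 35979913 on chromosome 2. Gsn (ENSMUSG00000026879.14) runs on the plus strand from 35256380 to 35307892, and Stom (ENSMUSG00000026880.11) on the minus strand from 35313986 to 35336976. Dab2ip (ENSMUSG00000026883.17) runs on the plus strand from 35558266 to 35730994, and Ttll11 (ENSMUSG00000026885.13) on the minus strand from 35751241 to 35979913. In each of these pairs the 3′ ends face each other, with a gap of 6093 bases between Gsn and Stom and of 20246 bases between Dab2ip and Ttll11. Another gene, Ggta1, lies between Stom and Dab2ip, from 35400179 to 35463231. The annotation lists 7 transcripts of Gsn with 7 starts and 13 transcripts of Dab2ip with 13 starts, and the counts are sums over them.

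Promoter windows are shown because the tagged protein, EBF1, binds DNA, and they give the sequence at the annotated starts of these genes. RefSeq (build GRCm38.p6) gave 8 windows for 3 of the genes, Gsn, Stom and Dab2ip, each 300 bases long, from 250 bases before to 50 bases after a start. Capitals mark matches to the inner part of the EBF1 palindrome, CCCNNGGG, which reads the same on both strands and lies within the full palindrome TCCCNNGGGA. The first and last Gsn windows, the Stom window and the first and second Dab2ip windows are printed 5′ to 3′ on the gene's strand.

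Gsn first window, chr2:35256109-35256408, plus strand: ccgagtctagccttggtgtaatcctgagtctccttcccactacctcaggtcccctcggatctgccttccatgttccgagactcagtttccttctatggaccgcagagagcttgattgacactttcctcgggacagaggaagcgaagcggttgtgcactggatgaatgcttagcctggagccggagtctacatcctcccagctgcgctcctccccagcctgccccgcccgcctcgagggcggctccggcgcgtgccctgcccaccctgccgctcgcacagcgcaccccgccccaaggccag

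Gsn last window, chr2:35282130-35282429, plus strand: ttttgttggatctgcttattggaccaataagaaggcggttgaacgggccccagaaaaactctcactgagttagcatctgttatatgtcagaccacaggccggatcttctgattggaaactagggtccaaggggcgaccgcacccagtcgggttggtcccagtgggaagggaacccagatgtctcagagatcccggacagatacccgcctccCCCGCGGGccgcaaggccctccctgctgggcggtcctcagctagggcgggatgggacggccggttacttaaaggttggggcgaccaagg

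Stom window, chr2:35336960-35337259, minus strand: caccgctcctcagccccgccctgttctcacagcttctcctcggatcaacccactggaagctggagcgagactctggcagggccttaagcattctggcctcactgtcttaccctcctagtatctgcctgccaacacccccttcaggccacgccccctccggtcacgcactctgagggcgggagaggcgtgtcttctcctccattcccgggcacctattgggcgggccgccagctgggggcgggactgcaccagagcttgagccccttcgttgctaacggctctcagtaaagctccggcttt

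Dab2ip first window, chr2:35558208-35558507, plus strand: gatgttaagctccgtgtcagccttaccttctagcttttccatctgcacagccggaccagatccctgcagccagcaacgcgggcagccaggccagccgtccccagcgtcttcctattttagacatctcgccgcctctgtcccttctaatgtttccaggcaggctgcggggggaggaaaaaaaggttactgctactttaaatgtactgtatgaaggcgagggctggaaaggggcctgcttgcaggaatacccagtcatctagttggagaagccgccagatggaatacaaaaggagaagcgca

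Dab2ip second window, chr2:35582590-35582889, plus strand: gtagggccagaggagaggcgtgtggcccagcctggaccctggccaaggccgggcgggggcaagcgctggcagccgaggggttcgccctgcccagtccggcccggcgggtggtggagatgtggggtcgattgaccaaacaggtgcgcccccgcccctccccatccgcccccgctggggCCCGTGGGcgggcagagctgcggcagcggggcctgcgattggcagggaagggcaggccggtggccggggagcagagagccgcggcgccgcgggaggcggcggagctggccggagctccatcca

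The full palindrome was found in 0 of the 8 windows, against 0.904% of all 32851 promoter windows in the table. The inner part was found in 2 of the 8 windows, against 13.7% of all windows. These 2 matches stand in the last Gsn window, from base 212, and in the second Dab2ip window, from base 178, counted from the window's first base. A match is a description of letters, and the counts do not show which start was in use.

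Ttll11, the tubulin glutamylase gene, was 8.20-fold lower in exonic reads after dTAG-13. It measured 3.89, 3.83, 3.40 and 3.77 exonic CPM (counts scaled to a common library size, so that libraries of unequal depth compare) in the dTAG-13 libraries, against 32.5, 30.7, 31.4 and 27.6 CPM in the DMSO libraries. The 4 treated libraries lay close together, and each was far below every control. The log2 change was -3.04 ± 0.08 (SE), the 14th lowest of 12889 genes. Its introns, which make up most of the gene, gave 16.4, 21.1, 12.1 and 19.0 intronic CPM with dTAG-13, against 192, 193, 188 and 201 CPM with DMSO. Intronic reads come mostly from RNA that is not yet spliced. The intronic log2 change was -3.48 ± 0.10 (SE), 11.2-fold lower and the eighth lowest of 11229 genes. The treated libraries ranged over 6.28% to 10.9% of the control mean in introns and over 11.1% to 12.7% in exons.

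Dab2ip, the Ras GTPase-activating protein gene, was 4.12-fold lower in exonic reads. It measured 19.9, 23.3, 20.8 and 23.9 exonic CPM with dTAG-13, against 91.5, 86.7, 91.4 and 92.4 CPM with DMSO. The groups did not overlap, and every treated library stood between 22.0% and 26.4% of the control mean. The exonic log2 change was -2.04 ± 0.05 (SE). Dab2ip introns gave 16.8, 19.7, 17.8 and 19.4 intronic CPM with dTAG-13, against 63.4, 63.9, 64.0 and 64.4 CPM with DMSO. The control libraries were nearly the same, and no treated library came near them. The intronic log2 change was -1.79 ± 0.09 (SE), or 3.46-fold lower. The predicted gene Gm13446 shares 347 exonic bases with Dab2ip on the opposite strand and had 0 reads in every library.

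Gsn, the actin-severing gene, was 2.66-fold lower in exonic reads, the smallest difference of these 3 genes. It measured 7.59, 7.17, 6.02 and 6.34 exonic CPM with dTAG-13, against 18.0, 18.2, 17.5 and 18.6 CPM with DMSO. The groups did not overlap, and the exonic log2 change was -1.41 ± 0.09 (SE). Gsn introns held few reads, with counts of 3, 8, 0 and 1 in the dTAG-13 libraries, against 27, 34, 56 and 32 in the DMSO libraries. Each treated library was below each control. The library with 0 reads, dTAG-13 replicate 3, allows up to 0.280 intronic CPM (a limit of 3 counts, for counting error only). Gsn intronic levels averaged 0.256 ± 0.284 CPM with dTAG-13 and 3.55 ± 0.736 CPM with DMSO (SD, n = 4 each). The intronic log2 change was -3.70 ± 0.53 (SE), and it was -4.73 without dTAG-13 replicate 2, which held 8 of the 12 treated reads.

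**Figure D1:**
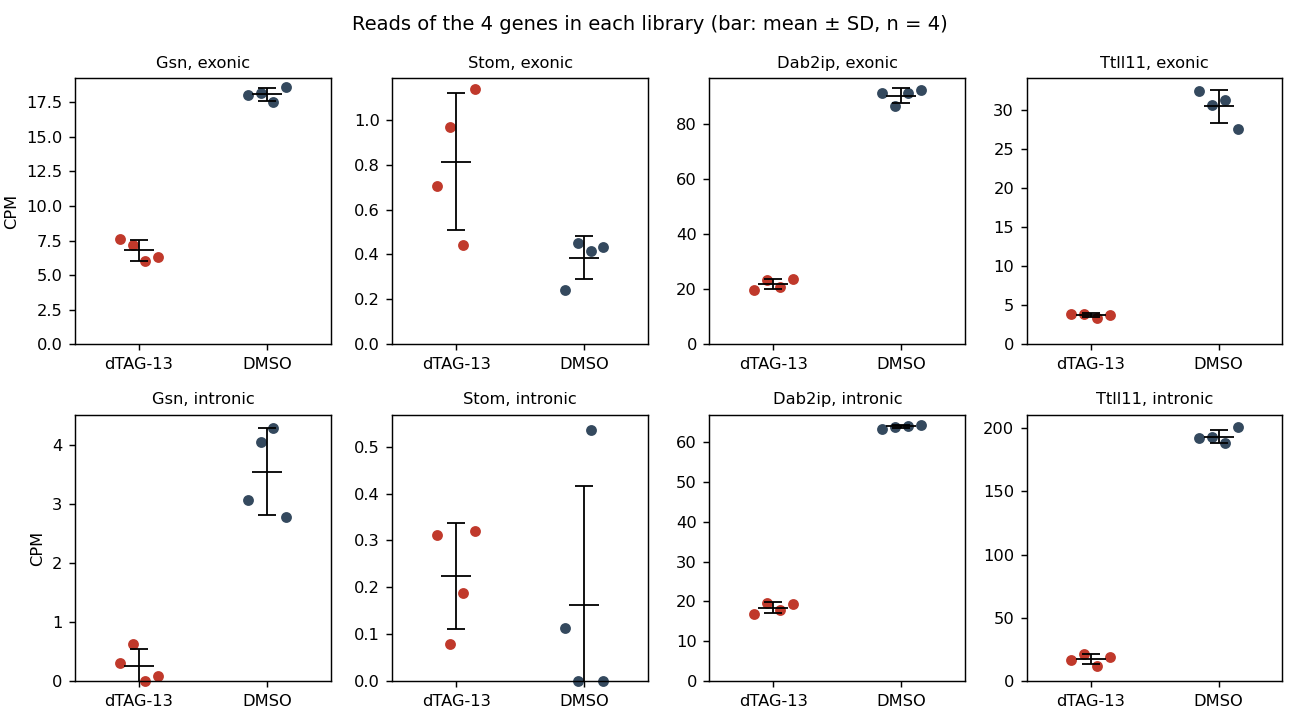
Exonic (top) and intronic (bottom) reads of Gsn, Stom, Dab2ip and Ttll11 in CPM on linear axes from 0, 1 point per library with the mean and SD (n = 4 per group). Treated and control libraries are apart for Gsn, Dab2ip and Ttll11 in both rows, while Stom is near 1 CPM or below in every library and its groups overlap.

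Stom, the stomatin gene, differed from Gsn, Dab2ip and Ttll11 in direction, and its level was the lowest of the 4. It measured 0.707, 0.970, 0.441 and 1.14 exonic CPM with dTAG-13, against 0.242, 0.449, 0.417 and 0.433 CPM with DMSO. The groups overlapped by a narrow margin, since dTAG-13 replicate 3 lay below DMSO replicate 2. The values rest on 121 reads over the dTAG-13 libraries and 52 over the DMSO libraries. The exonic log2 change was 1.06 ± 0.38 (SE), and between 0.86 and 1.27 with any 1 library left out. The authors' deposited table gives Stom an exonic log2 change of 0.58 with a standard error of 0.59, on a scale whose low genes lie closer to 0. Stom introns held 10 reads with dTAG-13 and 8 with DMSO, with 7 of these 8 in DMSO replicate 3, too few for a fitted change. Among the marker lists of other cell types, the 8 myeloid ones summed to 0.485 to 1.12 exonic CPM with dTAG-13 and to 0.162 to 0.449 CPM with DMSO. The sum was mostly Lyz2 (0.575 CPM with dTAG-13 and 0.236 CPM with DMSO), while Cd14, Ctsg and Elane were at 0 in every library. Itgam (0.0479 and 0 CPM) and Adgre1 (0.0143 and 0 CPM) were higher with dTAG-13. Csf1r (0 and 0.0238 CPM) and Mpo (0.0409 and 0.0518 CPM) were lower. The 5 erythroid markers were lower too, at 0.0272 to 0.182 CPM with dTAG-13 and 0.553 to 0.933 CPM with DMSO, Klf1 alone. Whether myeloid cells were present, or had a part in the Stom result, was not tested.

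Read against all genes, 3 of the 4 genes were lower with groups that did not overlap in exonic reads, a separation that 13.5% of the 12889 tested genes showed. In intronic reads the same 3 genes were lower without overlap, against 10.0% of 11229 tested genes. The rule used these values, so nothing is drawn from the counts. In bulk RNA fewer cells that express a gene and less RNA per cell cannot be told apart.

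Levels between genes were compared as exonic reads per kilobase of exon, scaled to the whole-gene reads of each library as RPKM is. On this scale of levels Dab2ip stood at 2.03 ± 0.165 with dTAG-13 and 8.16 ± 0.0770 with DMSO (SD, n = 4 each). Gsn stood at 1.66 ± 0.178 with dTAG-13 and 4.31 ± 0.130 with DMSO. Ttll11 stood at 0.715 ± 0.0401 with dTAG-13 and 5.73 ± 0.434 with DMSO. Stom stood at 0.223 ± 0.0824 with dTAG-13 and 0.103 ± 0.0266 with DMSO. Under DMSO the order was Dab2ip, Ttll11, Gsn and Stom, with no overlap between neighbours in the order. Under dTAG-13 it was Dab2ip, Gsn, Ttll11 and Stom, and Dab2ip and Gsn overlapped, the lowest Dab2ip library at 1.85 and the highest Gsn library at 1.87.

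The balance of intronic and exonic reads differed between the 3 lower genes. Introns gave 57.7% ± 7.61 of Ttll11 reads with dTAG-13 and 66.3% ± 2.39 with DMSO (SD, n = 4 each). The share of Dab2ip was 20.3% ± 1.99 with dTAG-13 and 18.0% ± 0.831 with DMSO. Gsn introns gave 1.07% ± 1.21 of its reads with dTAG-13 and 5.79% ± 1.45 with DMSO. Of these 3, the Gsn shares did not overlap between groups, and those of Ttll11 and Dab2ip did. Over all genes the share was 23.2% ± 3.13 with dTAG-13 and 23.9% ± 1.63 with DMSO, so the libraries as a whole ranged from 20.4% to 27.3%. In 1 model over both read classes, the exonic minus the intronic log2 change was 2.32 ± 0.48 (SE) for Gsn, 0.47 ± 0.13 for Ttll11 and -0.25 ± 0.09 for Dab2ip. A positive value means that introns were lower by more than exons. The same contrast chose the genes, so these differences are descriptions too. For Gsn the difference rests on the 12 treated intronic reads above.

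**Figure D2:**
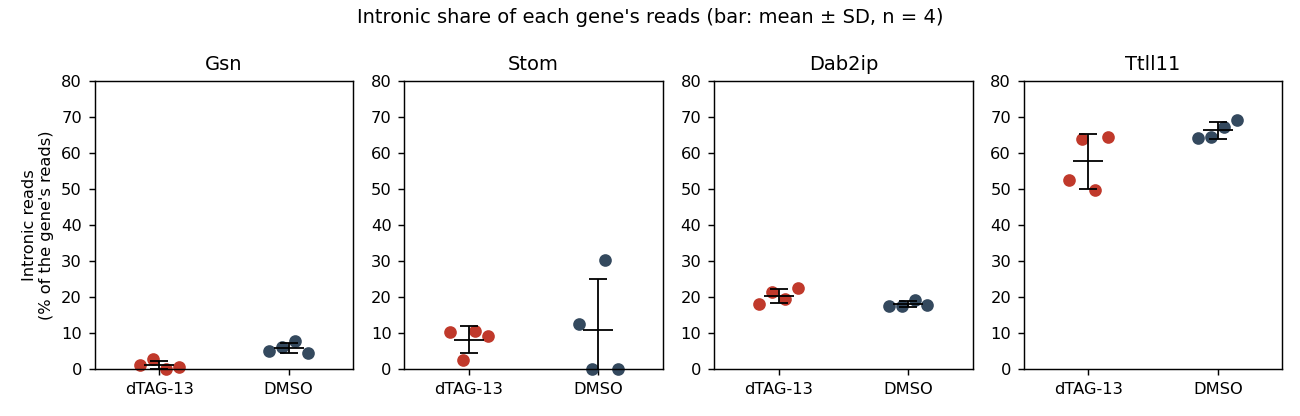
Intronic reads as a percentage of each gene's reads, 1 point per library with the mean and SD (n = 4 per group). The Gsn share is below 3% in every dTAG-13 library and above 4% in every DMSO library, the Ttll11 share is over 49% throughout, and Stom, with few reads, spreads widely under DMSO.

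**Figure D3:**
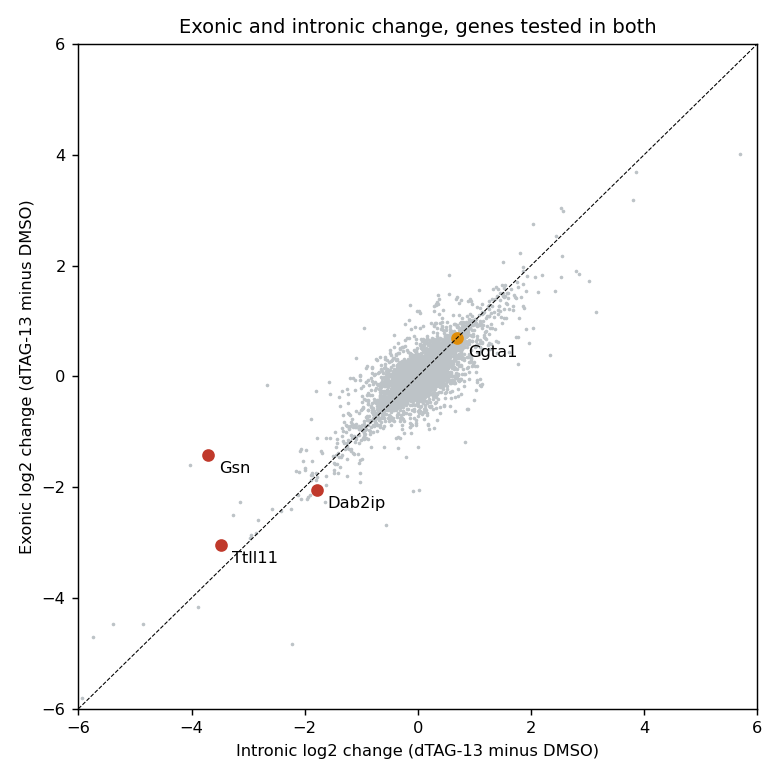
Exonic against intronic log2 change (dTAG-13 minus DMSO) of the 10026 genes tested in both read classes, 1 grey point per gene, with the dashed line of equal change. Gsn, Dab2ip and Ttll11 (red) lie at the low end, Gsn above the line at -3.70 in introns and -1.41 in exons, and Ggta1 (orange) lies on the line at 0.69 and 0.68.

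The genes around the 4 were tested, since they were not chosen, although the 4 were picked from this region with results known. Within 1 Mb on either side, 76 further gene IDs are in the tables and 19 had enough exonic reads to test. Of these 2 were lower and 2 higher (21.1% changed, edgeR adjusted p below 0.05), against 14.0% lower, 14.3% higher and 28.3% changed of all tested genes. The predicted gene Gm43760, 1 of the 2 lower, lies inside Ttll11, and its reads may be unspliced Ttll11 RNA. In intronic reads 3 of 16 were higher and 0 lower, against 8.26% higher, 8.50% lower and 16.8% changed of all. At an unadjusted p below 0.05 edgeR had 3 lower and 3 higher in introns, and DESeq2 called 0 lower and 3 higher. The median log2 change of the neighbours was -0.01 in exons and 0.02 in introns, against 0.00 for all genes in each.

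Ggta1, which encodes the galactosyltransferase that makes the alpha-gal sugar, rose in both read classes and lies between Stom and Dab2ip. It measured 60.8, 56.5, 63.1 and 58.9 exonic CPM with dTAG-13, against 34.1, 39.1, 35.4 and 40.3 CPM with DMSO. All treated libraries lay above all controls, and the log2 change was 0.68 ± 0.05 (SE, edgeR adjusted p = 5.4e-11). Ggta1 introns gave 266, 293, 284 and 294 intronic CPM with dTAG-13, against 167, 180, 181 and 175 CPM with DMSO. The intronic change was 0.69 ± 0.06 (SE, edgeR adjusted p = 5.5e-09), close to the exonic one.

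Gm43760, a predicted gene within a Ttll11 intron on the same strand, fell with a log2 change of -3.40 ± 0.35 (SE). It averaged 0.316 exonic CPM with dTAG-13 and 3.38 CPM with DMSO. It shares no exonic base with Ttll11, but reads there cannot be told apart from unspliced Ttll11 RNA. Its change is therefore given as a description, like that of Ttll11. Without Gm43760, an alternative chosen after seeing the data, 1 of 18 neighbours was lower and 2 were higher in exons (16.7% changed).

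Farther out, Hspa5, the gene of the endoplasmic reticulum chaperone BiP, fell to 249 ± 22.1 exonic CPM with dTAG-13, against 422 ± 16.2 CPM with DMSO (SD, n = 4 each, log2 change -0.76, edgeR adjusted p = 6.2e-13). Psmd5, a chaperone gene for proteasome assembly, rose to 63.1 CPM with dTAG-13, against 53.7 CPM with DMSO (log2 change 0.23, edgeR adjusted p = 2.8e-04). Its intronic rise of 0.33 (edgeR adjusted p = 0.0127) missed the threshold when dTAG-13 replicate 2 was left out (edgeR adjusted p = 0.0687). Pbx3, a homeobox gene at the far end of the window before Gsn, rose in introns by 1.13 on the log2 scale (edgeR adjusted p = 0.0441). Leaving out DMSO replicate 2 or 3 ended that call (edgeR adjusted p = 0.113 each time). So did leaving out dTAG-13 replicate 1 (edgeR adjusted p = 0.230) or replicate 4 (edgeR adjusted p = 0.0511). The other 10 coding neighbours with at least 10 CPM, among them Rab14 and Cntrl before Gsn and Ndufa8 after Ttll11, did not pass, with exonic log2 changes between -0.14 and 0.10 (SE at most 0.09).

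**Figure D4:**
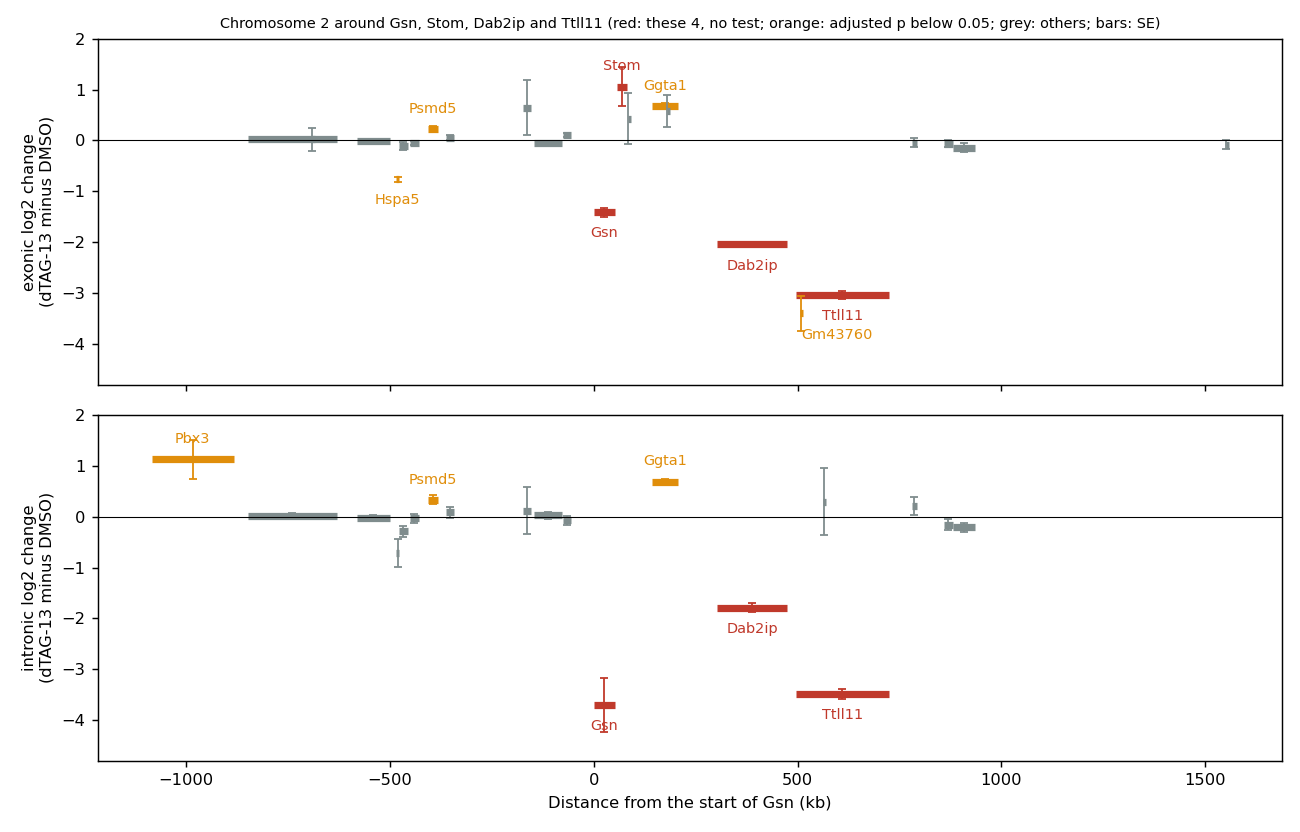
Exonic (top) and intronic (bottom) log2 change (dTAG-13 minus DMSO) of tested genes within 1 Mb, drawn as bars from gene start to end against distance from the start of Gsn in kb, with vertical bars for the SE. Dab2ip and Ttll11 are low side by side, Ggta1 is at 0.68 and 0.69 between Stom and Dab2ip, and the genes right before Gsn and after Ttll11 lie near 0.

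Genes related to the 4 by family or process had smaller estimated changes than Dab2ip and Ttll11, which were chosen with their changes known. Scin, named after its values were seen, had an exonic log2 change of 1.48 ± 0.54 (SE), against -1.41 ± 0.09 for Gsn and 1.06 ± 0.38 for Stom. With that error Scin cannot be ranked above Gsn or Stom in size. In the actin severing and capping list 11 of 20 tested genes were higher in exonic reads and 0 lower, against 14.3% higher and 14.0% lower of all tested genes. The list also holds factors that bind or recycle actin monomers, such as Cap1 and Tmsb4x. At an unadjusted p below 0.05 edgeR had 12 higher and 0 lower, and DESeq2 called 9 higher and 0 lower. The median log2 change was 0.15, against 0.00 for all genes. Cap1, an actin monomer recycling factor, rose to 427 CPM with dTAG-13, against 315 CPM with DMSO (log2 change 0.44, edgeR adjusted p = 1.3e-10). Tmsb4x, which encodes the monomer-binding thymosin beta-4, rose by 0.38, Coro1a (coronin) by 0.30, Wdr1, a partner of cofilin, by 0.28 and Pfn1 (profilin) by 0.25. The capping protein genes Capza1, Capza2 and Capzb, named after their values were seen, did not pass (log2 differences 0.06, 0.03 and 0.02). Of the gelsolin family itself, chosen after the values were seen, Capg measured 17.5 CPM with dTAG-13 and 15.5 CPM with DMSO (log2 difference 0.18, edgeR adjusted p = 0.077). Scin rose by 1.48 from a level below 1 CPM (edgeR adjusted p = 0.0413). Avil, also below 1 CPM, differed by -0.68 ± 0.48 (SE, edgeR adjusted p = 0.331), and Flii averaged 156 CPM in both groups. Svil, Vil1 and Vill had too few exonic reads to test. In introns 2 of 20 genes of the list were higher and 0 lower, near the 8.26% higher and 8.50% lower of all tested genes, with 6 higher and 0 lower at an unadjusted p below 0.05 and 2 and 0 by DESeq2.

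In the stomatin and SPFH domain family 2 of 7 tested genes were higher and 4 lower in exonic reads, against 14.3% higher and 14.0% lower of all tested genes, with a median log2 change of -0.12. Stoml1, a stomatin-like gene, rose to 11.7 CPM with dTAG-13, against 6.81 CPM with DMSO (log2 change 0.78, edgeR adjusted p = 3.3e-06). Flot1, which encodes the raft protein flotillin-1, rose to 44.6 CPM with dTAG-13, against 28.5 CPM with DMSO (0.65, edgeR adjusted p = 2.3e-10). Both also rose in introns, by 0.72 and 0.96. In introns 2 of 7 tested genes were higher and 0 lower, against 8.26% higher and 8.50% lower of all tested genes. In exons DESeq2 called 2 higher and 3 lower. The genes that fell encode prohibitins of the mitochondrial inner membrane, Phb (-0.21) and Phb2 (-0.12), the mitochondrial Stoml2 (-0.13, chosen after its values were seen) and the endoplasmic reticulum protein Erlin1 (-0.23). Phb2 missed the test when DMSO replicate 2 was left out (edgeR adjusted p = 0.0607), when dTAG-13 replicate 4 was (edgeR adjusted p = 0.0572) and with introns included (edgeR adjusted p = 0.163).

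In the list of Ras GTPase-activating proteins and partners of DAB2IP 8 of 17 tested genes were higher and 2 lower in exonic reads. Of all tested genes 14.3% were higher and 14.0% lower, and the median log2 change of the list was 0.12. In introns 4 genes of the list were higher and 2 lower, against 8.26% and 8.50% of all. The list also holds the scaffold genes Iqgap1, Iqgap2 and Iqgap3 and the Ras pathway inhibitor genes Spred1 and Spred2. Rasal3, a close relative of Dab2ip that is expressed in blood cells, rose to 322 CPM with dTAG-13, against 202 CPM with DMSO (log2 change 0.67, edgeR adjusted p = 2.1e-13). Rasal1 rose by 0.66 and Rasa2 by 0.32, and these 3 genes also rose in introns, by 0.68, 0.73 and 0.25. Iqgap3 and the cell cycle gene Skp2, chosen after their values were seen, fell in exons (-0.15 and -0.18) and in introns (-0.42 and -0.28). The scaffold gene Iqgap1 rose by 0.15 and Spred2, a Ras pathway inhibitor, by 0.20, a call that Spred2 lost with introns included (edgeR adjusted p = 0.306). The signalling partners Map3k5, Traf2, Ripk1 and Tradd, chosen after their values were seen, did not pass, with log2 differences of 0.10, 0.12, -0.02 and 0.12.

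In the tubulin glutamylation and tyrosination list 2 of 13 tested genes were higher in exonic reads and 0 lower, with a median log2 change of 0.06. The share of higher genes was near the 14.3% of all tested genes. At an unadjusted p below 0.05 edgeR had 4 higher and 1 lower, and DESeq2 called 2 higher and 1 lower. Tpgs2, a subunit of a tubulin polyglutamylase complex, rose by 0.26 (edgeR adjusted p = 0.00275). Ttll1, the catalytic subunit of that complex, rose by 0.40 (edgeR adjusted p = 0.012). Ttll4, another glutamylase gene, measured 103 CPM with dTAG-13 and 110 CPM with DMSO (log2 difference -0.10, edgeR adjusted p = 0.0507). Atat1 and Ttll12 differed by 0.28 and 0.10 without passing (edgeR adjusted p = 0.0578 and 0.131). Leaving out some single libraries brought Ttll4, Atat1 or Ttll12 past the threshold, with edgeR adjusted p between 0.0122 and 0.0294. The count of changed genes was 1 without dTAG-13 replicate 3, where Ttll1 missed the test (edgeR adjusted p = 0.0684), and 4 without dTAG-13 replicate 1. In introns none of 16 passed in edgeR or DESeq2, and 1 was lower and 1 higher at an unadjusted p below 0.05. Without DMSO replicate 3 the intronic count was 1.

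**Figure D5:**
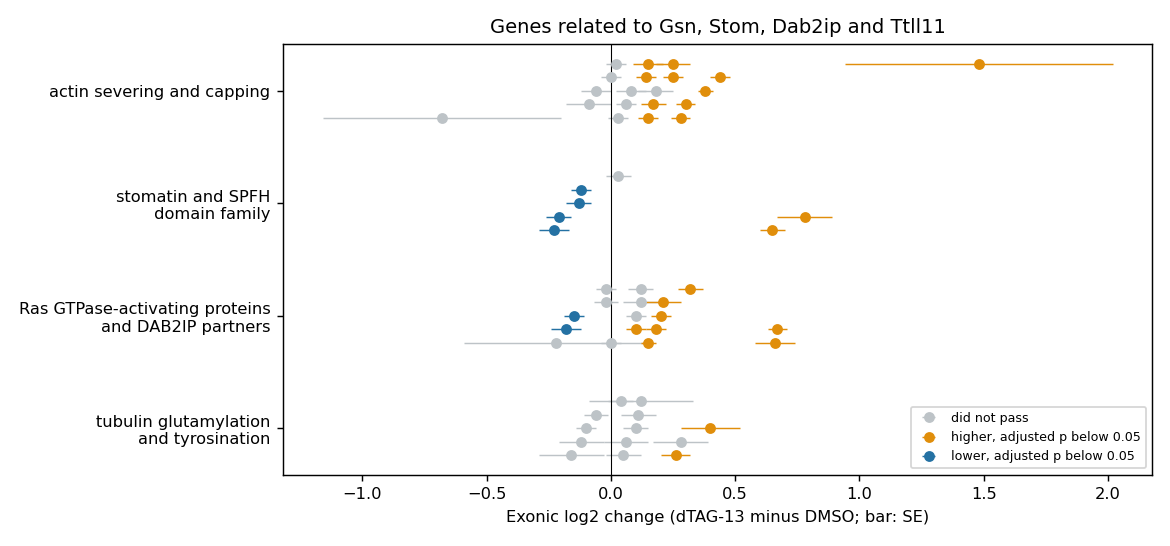
Exonic log2 change (dTAG-13 minus DMSO) of each tested gene in the 4 lists related to Gsn, Stom, Dab2ip and Ttll11, with the SE as a bar and colour for the edgeR call. Changes lie between -0.68 and 1.48, and none comes near the -2.04 of Dab2ip or the -3.04 of Ttll11. The largest estimate, Scin at 1.48 ± 0.54 (SE), is close in size to the -1.41 ± 0.09 of Gsn.

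The genes most like each of the 4 in exonic pattern lay on other chromosomes, except 1 match of Stom. The 4 genes themselves and predicted genes such as Gm43760 were left out as matches. The share of all genes on chromosome 2 was not computed, so nothing is drawn from the chromosomes. Likeness was the root mean square, over the 8 libraries, of the difference in log2 CPM after each gene's own DMSO mean was taken away, with 9517 named genes compared. With only a treated and a control group, this distance rests mostly on the size of the change, on which the 4 genes were chosen. The closest genes lie below the median by construction, so nothing is drawn from their closeness. The closest to Ttll11 were Vpreb2, a surrogate light chain gene that can share reads with its copy Vpreb1 (0.152), Megf10 (0.208) and the sodium channel subunit gene Scn2b (0.222), against a median distance of 2.14. The closest to Dab2ip were Rapgefl1 (0.126), the GATA cofactor gene Zfpm1 (0.129) and the retinol dehydrogenase gene Rdh10 (0.154), against a median of 1.45. The closest to Gsn were Syndig1l (0.0613), the calmodulin-dependent kinase gene Camk2b (0.0898) and Ndrg1 (0.0987), against a median of 1.00. The closest to Stom were Bfsp2 (0.270), Camkk1 (0.289) and Cerkl (0.300), against a median of 0.785, and Cerkl is also on chromosome 2. Among the 4 genes the shortest distance was 0.469 between Gsn and Dab2ip, and Dab2ip and Ttll11 were 0.698 apart.

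Library facts bear on all these values. Exonic reads numbered 28982316 to 38999496 per library, and the median standard error was 0.07 on the log2 scale in exons and 0.11 in introns. All 11 pro-B markers were measured, summing to 2258 to 2395 exonic CPM with dTAG-13 and 3002 to 3071 CPM with DMSO. Ebf1 RNA itself was 767 ± 38.5 CPM with dTAG-13 and 623 ± 13.9 CPM with DMSO (SD, n = 4 each), and RNA does not measure the degraded protein. All 6 T cell markers were at 0 in exonic reads. The 5 erythroid markers summed to 0.0272 to 0.182 CPM with dTAG-13 and 0.553 to 0.933 CPM with DMSO, Klf1 alone, and the 5 platelet markers to 0.761 to 1.46 CPM with dTAG-13 and 1.04 to 1.86 CPM with DMSO, with Pf4 and Gp1ba at 0. The 6 stromal markers reached 0.272 CPM with dTAG-13 and 0.0691 CPM with DMSO at most.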

How the data were processed

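The deposited files hold raw counts, 1 table of exonic reads and 1 of reads anywhere in a gene, from stranded, ribosome-depleted libraries, per the labels' protocols. Per the submitters' processing notes, Subread 2.0.0 (featureCounts) and STAR 2.7.4a were among the tools, and mm10 and GRCm38.p4 among the builds. Which strand setting and which annotation the counting used is not given in the sources used here, so reads of overlapping genes cannot be assigned with certainty. The authors' deposited table holds log2 fold changes, the standard errors of these changes (entered under the unit score, for want of a closer one) and p-values with adjusted p-values, per the file headers, and served for gene names and for values credited to it.

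Intronic counts are whole-gene minus exonic counts. Both were fitted over all genes with edgeR 4.0.16 in R 4.3.3 (quasi-likelihood F test, TMM, filterByExpr with minimum count 10 and total 15, treatment as the only term), with Benjamini-Hochberg adjustment over all tested genes and a threshold of 0.05. Standard errors are the log2 change divided by the root of F. CPM are relative to TMM-scaled sizes, so they are blind to a shift in all RNA of a cell. The exonic minus intronic change was fitted over 16 columns with the library as a block. Tests were checked on simulated data. Coordinates and lengths are from GENCODE vM21 (GRCm38), which carries all 4 genes with the same ID version as the files. Neighbours are annotated genes within 1 Mb. The 4 genes, the lists and the tests were chosen with earlier results of these data known. Named genes were the 4, called neighbours, up to 5 genes of smallest exonic p per list and the 3 most alike in pattern to each of the 4 with at least 1 mean CPM. Alternatives were RLE factors, DESeq2 1.42.0, no filter, a replicate block, whole-gene counts, other windows and each library left out.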

Additional observations from a re-analysis of the deposited data

Results flagged for a closer look

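Of 32 groups of 4 libraries examined for the 4 genes and the named neighbours, 3 held a library far from the other 3, where chance gives about 1 in 20. DMSO replicate 1 had 0.242 exonic CPM of Stom, against 0.417 to 0.449 CPM in the other DMSO libraries, and the Stom log2 change was 0.91 without it. In introns, dTAG-13 replicate 1 had 6.32 CPM of Pbx3, against 2.69 to 3.11 CPM in the other treated libraries, and DMSO replicate 1 had 3.63 CPM of Hspa5, against 5.48 to 5.67 CPM in the other controls. Without that library the intronic Hspa5 change of -0.71 (edgeR adjusted p = 0.0731) became -0.82 (edgeR adjusted p = 0.0431).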

How the results depend on the processing

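The directions of Gsn, Dab2ip and Ttll11 in exons and introns, and of Stom in exons, held under every alternative run. Stom introns had too few reads for a fitted change and were not checked. The Ttll11 log2 change was -3.32 with introns included, and the exonic Stom change 0.58 in the authors' deposited table. Leaving out 1 library at a time gave exonic changes of -1.47 to -1.36 for Gsn, 0.86 to 1.27 for Stom, -2.08 to -2.00 for Dab2ip and -3.08 to -2.99 for Ttll11. Intronic changes were then -4.73 to -3.33 for Gsn, -1.82 to -1.74 for Dab2ip and -3.60 to -3.35 for Ttll11. Changed neighbours numbered 4 to 5 in exons and 2 to 4 in introns, and changed related genes 22 to 28 (29 with all libraries) and 9 to 11 (10 with all libraries). A window of 2 Mb held 12 changed of 34 tested neighbours in exons (35.3%, against 21.1% within 1 Mb) and 6 of 27 in introns (22.2%, against 18.8%), and the cause was not tested. Intronic differences near 0 turned to -0.01 when 1 library was left out, for Spred2 (range -0.01 to 0.08), Tpgs2 (-0.01 to 0.18) and Ttll1 (-0.01 to 0.40). Same-numbered libraries did not deviate together (correlation -0.024 to 0.058), and 4 of 8 libraries correlated best with their own number in each read class. With the replicate block 3753 genes were called in exons (3649 without) and 1937 in introns (1881 without), and the tubulin list had 4 changed genes. Depth limits Stom and Gsn introns most.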

Other observations

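Farther along chromosome 2, between 1 and 2 Mb from the 4 genes, 8 of 15 tested genes passed the exonic test (53.3%, against 28.3% of all tested genes), named here after their values were seen. In introns 3 of 11 passed, against 16.8% of all. Strbp, which encodes an RNA-binding protein of the spermatid, was the largest of the well-expressed ones and fell to 205 ± 3.83 exonic CPM with dTAG-13, against 294 ± 12.2 CPM with DMSO (SD, n = 4 each, log2 change -0.52, edgeR adjusted p = 1.0e-11). Strbp also fell in introns, by 0.67 on the log2 scale. Mvb12b, an endosomal sorting gene, fell by 0.26 in exons and by 0.25 in introns. Ralgps1, an exchange factor for Ral GTPases, rose by 0.48 in exons and by 0.50 in introns. Crb2 fell by 1.44 from a level below 1 CPM, and Zbtb34, Rc3h2, Rabgap1 and Dennd1a rose by 0.12 to 0.15. Rabgap1 and Strbp overlap on opposite strands, so their reads may not be separable.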
